A study of Oreochromis niloticus with 5 samples.

Results

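The skeletal alpha-actin transcript acta1b and the transcripts of tropomyosin 1 (tpm1) were examined in fast (white) muscle of Nile tilapia (Oreochromis niloticus). The members were chosen by position in the annotation: the acta1b transcript rna1710, and every feature on the strand of the tpm1 transcript rna20019 whose span lay within, or shared a boundary with, that of rna20019 or rna20014. This gave 12 members of 80416 listed features, 1 for acta1b and 11 for tpm1. The libraries, named M1 to M5, came from 5 male full siblings with an age of 5 months in the sample labels, 1 library per fish. The paper gives a longer rearing time, so their age is uncertain. No treatment is given, and all fish share 1 tissue and 1 condition, so transcripts could be compared within fish but no groups could be compared. RNA was depleted of ribosomal RNA, and the deposited values are fragment counts per feature, with totals between 26750559 and 90337019 per library. Counts were divided by the DESeq2 median-of-ratios size factor of the library and are called normalized counts here. Where levels of different transcripts were compared, the normalized count was also divided by transcript length in kilobases.

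Actin and tropomyosin are among the main proteins of the thin filament of striated muscle. Actin monomers assemble into the filament that myosin pulls on, and tropomyosin, a coiled-coil dimer, lies along it and, with the troponin complex, controls when myosin can bind. Vertebrate tropomyosin 1 genes are known for making many isoforms from 1 gene by using different start sites, pairs of mutually exclusive exons and different last exons. In mammals, some of these choices separate the forms of striated muscle from those of smooth muscle and non-muscle cells.

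The exons that set the tpm1 transcripts apart are given here because all later comparisons between isoforms rest on them. On assembly O_niloticus_UMD_NMBU the gene lies on the plus strand of linkage group 7, from 52745548 to 52756748, and no other listed feature overlapped it. The 11 transcripts held 21 distinct exons with 4177 exon bases in all. Only 5 exons, with 456 bases in total, were part of every transcript. These common exons had 134, 118, 71, 63 and 70 bases and began at 52750006, 52750397, 52750819, 52751921 and 52752094.

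The transcripts differed in 5 places. Of the 11 transcripts, 8 began at an upstream start exon that ended at 52745825, and 3 began at an internal start exon, 2666 bases or more downstream of the first start, that ended at 52748480. The upstream transcripts then used either an exon of 126 bases at 52746205 to 52746330 or another of 126 bases at 52746508 to 52746633, called the first exon pair here. All transcripts used either an exon of 76 bases at 52751116 to 52751191 or another of 76 bases at 52751647 to 52751722, called the second exon pair. At the 3′ end, 6 transcripts finished at 52754706 (the near 3′ end) and 5 finished in an exon of 866 bases from 52755883 to 52756748 (the far 3′ end). The near 3′ end came in a split form, with an exon of 79 bases from 52752801 to 52752879 and an exon of 826 bases from 52753881 to 52754706. It also came in an unsplit form, an exon of 1906 bases that includes the 1001 bases between them. Those 1001 bases are called the middle bases here. The authors let a fragment count for every transcript whose exons it touched. A fragment in a common exon was therefore counted 11 times, and transcripts differ in count only through fragments that touch exons they do not share.

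**Figure D1:**
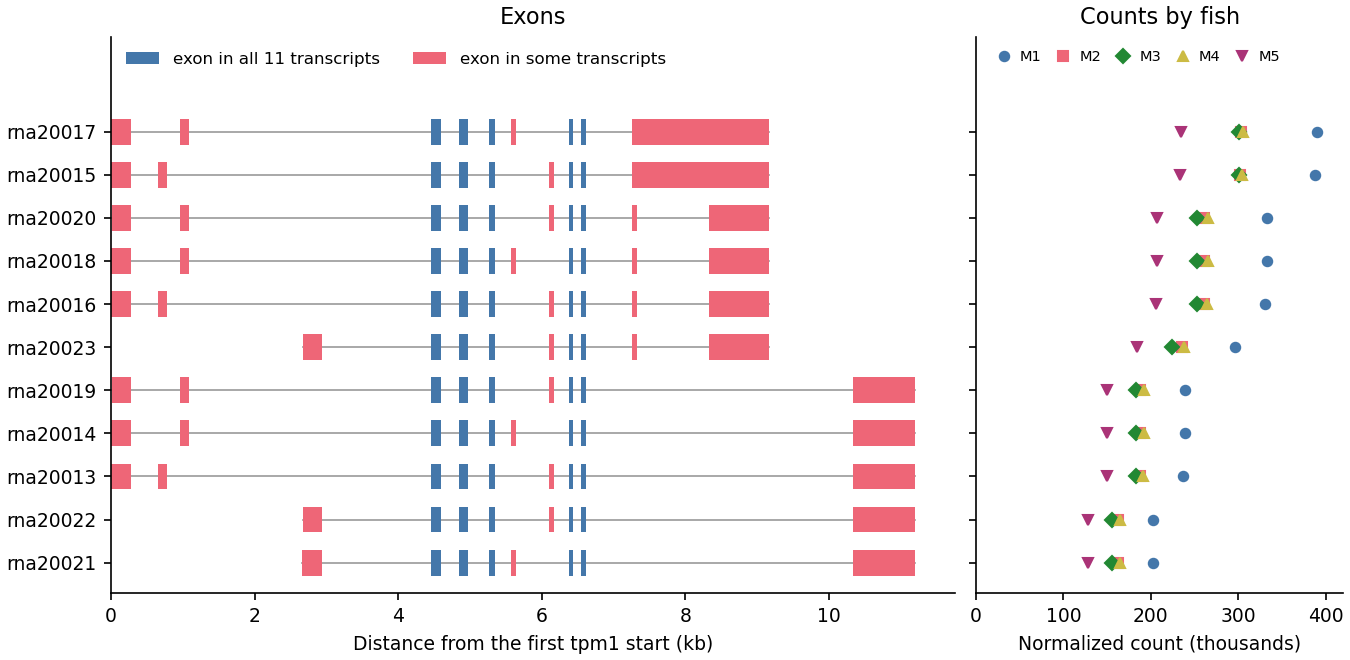
Exons of the 11 tpm1 transcripts against distance from the first start in kilobases (left), with exons present in all transcripts in blue and the others in red, and the normalized count of each transcript in each of the 5 fish, in units of 1000 (right). The counts fall into steps that follow the 3′ end and the start, from 306777 for rna20017 to 162412 for rna20021 on average, and M1 is the highest and M5 the lowest fish at each transcript.

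The acta1b transcript has 7 exons and 1653 bases and lies on the minus strand of linkage group 1, from 25587889 to 25591779. No other listed feature overlapped it, and the nearest feature, of ccsapb, lay 828 bases away with at most 2 counts in any fish. All 12 members had at least 10 counts in every fish, as did 34.9% of all listed features. Values over the 5 fish are given below in the order M1 to M5. Counts of acta1b made up 3.10, 2.97, 2.81, 2.97 and 2.03% of the summed counts of the libraries. A fragment enters that sum as often as the number of transcripts it touches, and acta1b has 1 transcript, so these are shares of counts and understate its share of fragments. The 95% Wilson interval was 2.021 to 2.030% for M5 and 2.809 to 2.819% for M3, the next lowest fish. Such intervals cover counting error only. The share was lowest in M5. Per kilobase, acta1b ranked first of all listed features in M1 to M4 and second in M5.

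The normalized count of acta1b was 1365889, 1216352, 1119842, 1208554 and 780125 (M1 to M5). M5 stood lowest, at 0.685 of the mean over fish, and M1 stood highest, at 1.20 of it. In the study's alignment summary, M1 stands apart with a smaller share of aligned reads and of assigned fragments than the other libraries, and the part of this in its values was not tested. Without M1 the mean over fish was 1081218 for acta1b, against 1138152 with it, and 285926 for rna20017, against 306777. The spread between fish was 0.31 (SD of log2(normalized count + 1), n = 5). Among the 3572 features whose mean normalized count reached 1000, the median of this SD was 0.26, and 62.2% had a smaller SD than acta1b. Without M5 the SD of acta1b dropped to 0.118, so most of its spread came from that fish. In bulk tissue, fewer cells of a type and less RNA per cell cannot be told apart. The summed level of 6 fast fibre markers per kilobase was 1288439, 1293994, 982391, 1185544 and 1347124 (M1 to M5). The sum was thus highest in M5, where acta1b and all tpm1 transcripts were lowest. By their means over fish, mylpfa, ckma and ckmb made up nearly all of it, and mylpfb and atp2a1 added very little. Here atp2a1 is only the gene with that symbol. The paper lists another gene for this type of calcium pump among the most expressed, and that gene is not in the sum. The sixth marker, actn3b, had 38194, 31077, 29117, 42408 and 29231 per kilobase (M1 to M5) and was highest in M4. The sum therefore mainly follows a few genes, and whether the amount of fast fibres differed between fish was not tested.

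The tpm1 transcript with the highest normalized count was rna20017, which has the upstream start and the unsplit near 3′ end. Its normalized count was 390182, 303013, 301348, 305352 and 233992 (M1 to M5). M2, M3 and M4 lay close together, M1 stood above them and M5 below, as for acta1b. The SD of rna20017 on the log2 scale was 0.26 (n = 5), and 47.7% of the features with a mean of at least 1000 had a smaller SD. The other tpm1 transcripts had SDs between 0.24 and 0.26. M1 was above M5 by 1.67 times for rna20017 and by 1.75 times for acta1b.

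The 11 tpm1 transcripts fell into 5 classes of count, and the classes matched the start, the 3′ end and the middle bases. The 2 transcripts with the upstream start and the unsplit near 3′ end, rna20015 and rna20017, had mean normalized counts of 305838 and 306777. The 3 with the upstream start and the split near 3′ end, rna20016, rna20018 and rna20020, had means between 262828 and 263789. The internal start with the split near 3′ end, rna20023, had a mean of 235869 ± 39962 (SD, n = 5 fish). These 6 transcripts all end at the near 3′ end, and they held the first 6 places among the tpm1 transcripts. The 3 transcripts with the upstream start and the far 3′ end, rna20013, rna20014 and rna20019, had means between 189535 and 190500. The lowest class was the internal start with the far 3′ end, rna20021 and rna20022, with means of 162412 and 162538.

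Which exon of the first or second pair a transcript carried made almost no difference to its count. Within the classes, which hold 8 of the 55 pairs of transcripts, the means differed by at most 0.509%. The other 47 pairs had ratios from 1.11 up to 1.88 for the upper class against the lowest. In all 55 pairs the same transcript was the higher in 5 of 5 fish. For rna20017 over rna20018 and rna20015 over rna20016 this direction was fixed by the counting, since the first holds every exon base of the second, and their test says nothing. An exact test that flips the sign of the log2 ratio within fish gave a two-sided p of 0.0625 for each pair, also after Benjamini-Hochberg adjustment over the 55 pairs. This is the least p that 5 fish allow. The 55 pairs repeat the same few exon differences in the same fragments, so they are not 55 independent results. The ratio of rna20018 to rna20019 varied by an SD of only 0.00668 on the log2 scale between fish (n = 5), against 0.24 for each transcript alone. Since both count the fragments of the exons they share, this narrow spread is partly fixed by the counting.

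Divided by length, the order of the classes changed. The transcripts with the split near 3′ end had the highest normalized counts per kilobase, with means between 139568 for rna20023 and 143911 for rna20020. Transcripts with the far 3′ end from the upstream start had between 105181 and 106069. The unsplit transcripts rna20015 and rna20017, first by count, had 107689 and 108058, since their middle bases added length at a lower density of fragments. The transcripts with the internal start and the far 3′ end stayed lowest, at 97545 and 98210. Within each fish, transcripts with the split near 3′ end stood above those with the far 3′ end from the upstream start. In M5, for example, rna20018 had 112340 per kilobase and rna20019 had 83514. The SDs of their levels, 24612 for rna20018 and 17758 for rna20019 (n = 5), are spreads between fish and do not measure this difference within fish.

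**Figure D2:**
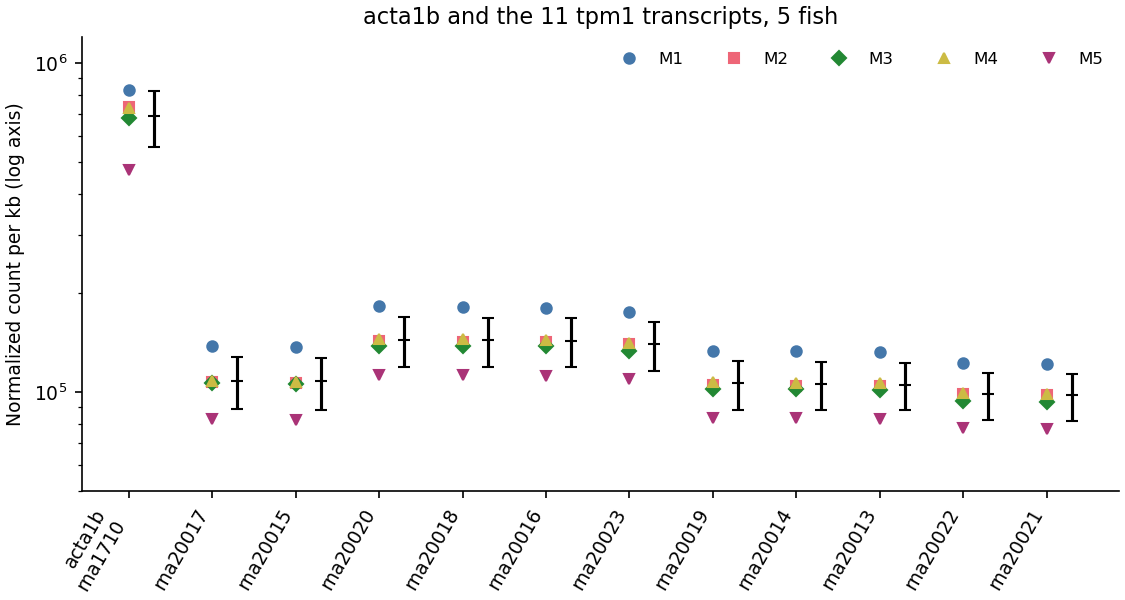
Normalized count per kilobase (log axis) of acta1b and of the 11 tpm1 transcripts in each of 5 fish, with the mean and SD to the right of the points. acta1b lies between 471945 and 826309, above every tpm1 transcript, and M5 is the lowest fish and M1 the highest for all 12 members.

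The middle bases of the near 3′ end drew many fragments in every fish. The transcript rna20017 holds all exon bases of rna20018 and the 1001 middle bases beyond them, so the difference of their counts is the number of fragments that touched the middle bases and no exon of rna20018. There were 34778, 91981, 44500, 33404 and 27601 such fragments (M1 to M5). How they spread over the 1001 bases cannot be seen from the counts. Nor do the counts tell the unsplit transcript from RNA of the split form before splicing. They made up 13.9% ± 1.59 (SD, n = 5 fish) of the fragments of rna20017. In single fish the 95% Wilson interval of this share was 14.5 to 14.8% for M1, 13.7 to 13.9% for M2, 15.9 to 16.1% for M3, 13.1 to 13.4% for M4 and 11.6 to 11.9% for M5. M3 stood highest and M5 lowest. These intervals cover counting error within a library only.

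Per kilobase, fragments that touched the middle bases alone amounted to normalized counts of 57200, 41707, 48162, 40321 and 27483 (M1 to M5). This was 0.297 ± 0.0393 (SD, n = 5 fish) of the density over the whole of rna20018. Fragments that crossed from the middle bases into the neighbouring exons were counted for rna20018 too and do not enter, so these densities are lower limits. Set against the net density of the near 3′ end, taken from rna20023 less rna20022 over 905 bases, the middle bases had 0.552, 0.514, 0.625, 0.498 and 0.440 of it (M1 to M5). The net density has the fragments of the far 3′ end subtracted and lacks those that reach shared exons. It is therefore a lower limit too, and these ratios could be too high or too low. M3 stood highest and M5 lowest on this scale too. The second nested pair, rna20015 and rna20016, differs by the same bases and gave 27600 to 91971 fragments, within 12 fragments of the first pair in every fish.

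Fragments that touched the near 3′ end alone outnumbered those that touched the far 3′ end alone in every fish. The transcripts rna20023 and rna20022 are alike but for 905 bases of the near 3′ end in the first, 866 bases of the far 3′ end in the second and 4 bases at the start of the second. Their counts differed by 56974, 161690, 64353, 60618 and 56691 (M1 to M5). The difference was 31.0% ± 0.399 (SD, n = 5) of the count of rna20023, between 30.6 and 31.7%. The other 3 pairs that exchange these ends gave the same picture, at 27.7 to 27.8% of the count of their first transcript, which is larger because it starts upstream. At least as many fragments as the difference therefore touched the near 3′ end and no exon of the far-end transcript. The number that touched the far 3′ end alone cannot be read from the counts, because only the net difference is seen. The difference was positive in 5 of 5 fish (exact sign-flip test, p = 0.0625, two-sided, the least possible).

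Fragments of the upstream start and its next exon alone outnumbered those of the internal start alone as well, by fewer fragments and over shorter regions. The transcript rna20020 exceeded rna20023 by 22373, 55282, 26209, 22660 and 21969 fragments (M1 to M5). These transcripts exchange 396 bases of the upstream start exon and its next exon for 253 bases of the internal start exon. The difference was not corrected for these unequal lengths. The difference was 10.6% ± 0.643 (SD, n = 5) of the count of rna20020, with M2 lowest at 9.60% and M3 highest at 11.2%. The pair with the far 3′ end, rna20019 and rna20022, gave 14.6% ± 0.848 (SD, n = 5) of a smaller count, and a normalized difference of 27962 against 27919. The high counts of the 3 internal-start transcripts came with 5 exons that all 11 transcripts share, and do not show how often the internal start was used.

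The exchange of exons within the pairs left only few fragments to count. Such exons are short and lie between others, and a fragment that also touches a common exon adds to both transcripts. In the first pair, rna20020 with the downstream exon exceeded rna20016 with the upstream exon by 1168, 1700, 545, 665 and 718 fragments (M1 to M5). This was between 0.233 and 0.578% of the count of rna20020, with M1 the highest. In the second pair, rna20020 with the downstream exon exceeded rna20018 with the upstream exon by 31, 66, 24, 19 and 15 fragments (M1 to M5), or 0.0106% ± 0.00309 (SD, n = 5) of its count. Transcripts that exchange the same exons but end at the far 3′ end differed by more. The difference was 61, 587, 68, 38 and 42 fragments for rna20019 less rna20014 and 75, 642, 72, 68 and 55 for rna20022 less rna20021 (M1 to M5). This was 0.0551% ± 0.0490 of the count of rna20019 and 0.0766% ± 0.0576 of that of rna20022 (SD, n = 5), with M2 highest in both. A fragment that touches an exon of the pair, the near 3′ end and no other exon adds to both near-end transcripts. Among the far-end transcripts it adds only to those with that exon of the pair. Fragments that reach the far 3′ end instead do the reverse. The larger differences thus depend on such fragments and do not show a trait of far-end transcripts. The transcript with the downstream exon had the higher count in 5 of 5 fish in all these contrasts (exact sign-flip test, p = 0.0625 for each, two-sided). The start positions of the transcripts of a pair also differ, by up to 10 bases, with the transcript that has the upstream exon starting first, a difference which could only lower these values. Because the shared fragments are hidden, the near-equal counts do not show that both exons of a pair were used equally. Nor can the few fragments that were counted be told from RNA before splicing, so they do not show which exon was used more.

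**Figure D3:**
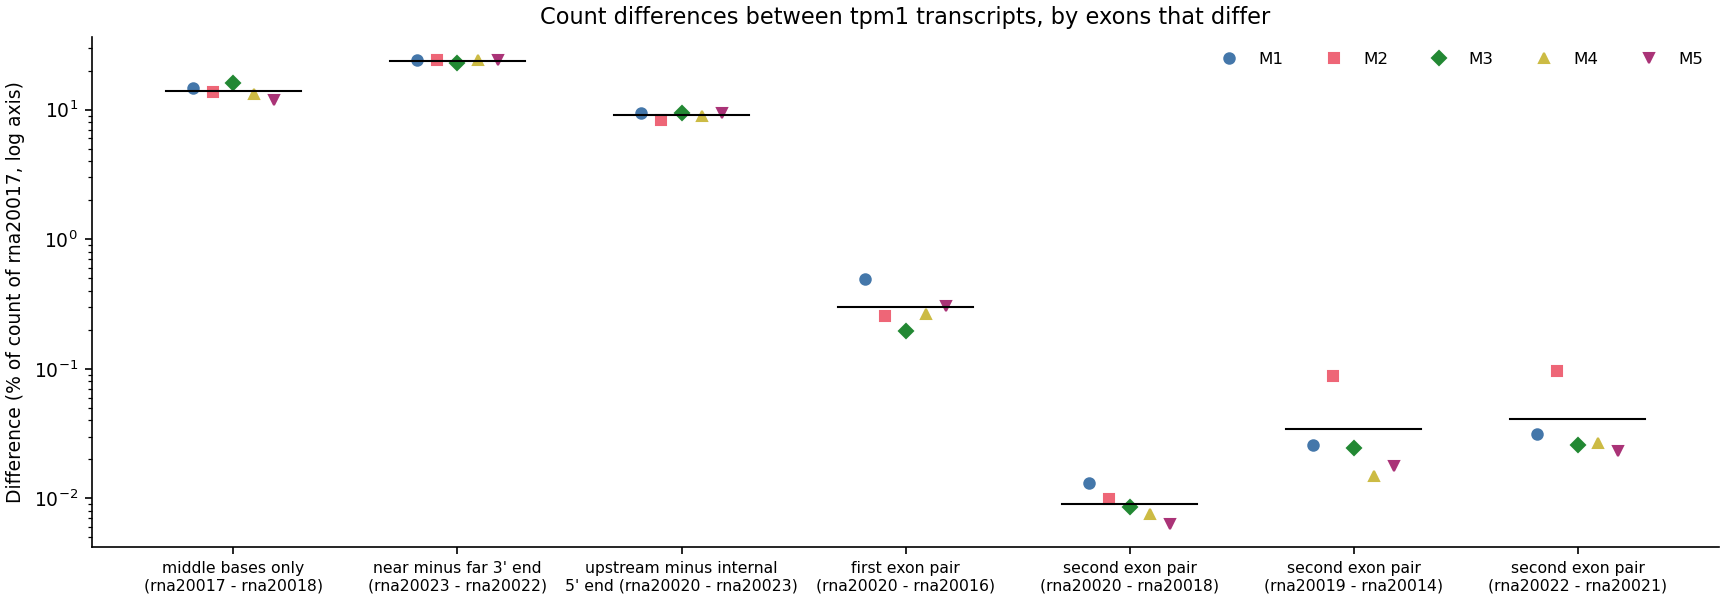
Difference of count between pairs of tpm1 transcripts as a percent of the count of rna20017, the highest tpm1 transcript, in each of 5 fish (log axis), with the mean as a line, by the exons in which the pair differs. On this common scale the means were 23.9% for the 3′ end, 13.9% for the middle bases, 9.09% for the 5′ end, 0.302% for the first exon pair and 0.00910, 0.0342 and 0.0408% for the 3 contrasts of the second exon pair.

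The ratio of actin to tropomyosin 1 varied less between fish than either transcript alone. Per kilobase, acta1b was above rna20017 by 6.01, 6.89, 6.38, 6.80 and 5.73 times (M1 to M5). The ratio was above 1 in 5 of 5 fish, with a mean log2 ratio of 2.67 ± 0.114 (SD, n = 5). Flipping signs within fish gave a two-sided exact p of 0.0625, the least that 5 fish allow. The paper had already given this actin as the most expressed gene in these data. The direction was thus known beforehand, and the test adds nothing to it. The highest ratio was 1.20 times the lowest, while acta1b and rna20017 themselves spanned 1.75 and 1.67 times. The ratio was lowest in M5, the fish in which both were lowest, and next lowest in M1, the fish in which both were highest. Both transcripts are divided by the same size factor, which leaves the ratio within a fish as it is.

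The size of the ratio depended on how tpm1 was counted. Against the split transcript rna20018 the ratio per kilobase was 4.79 ± 0.401 (SD, n = 5), and over the 11 transcripts the mean ratio ranged from 4.77 for rna20020 to 7.03 for rna20021. With the highest tpm1 count spread over all 4177 exon bases of the gene the ratio was 9.36 ± 0.736. That count lacks fragments that touch only tpm1 exons outside the transcript, so this ratio is an upper limit. Without division by length it was 3.70 ± 0.291. When the 5 actins of the thin filament list were summed and set against its 5 tropomyosins, the ratio was 6.15 ± 0.517 (SD, n = 5). Under each of these definitions acta1b was above tpm1 in every fish.

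**Figure D4:**
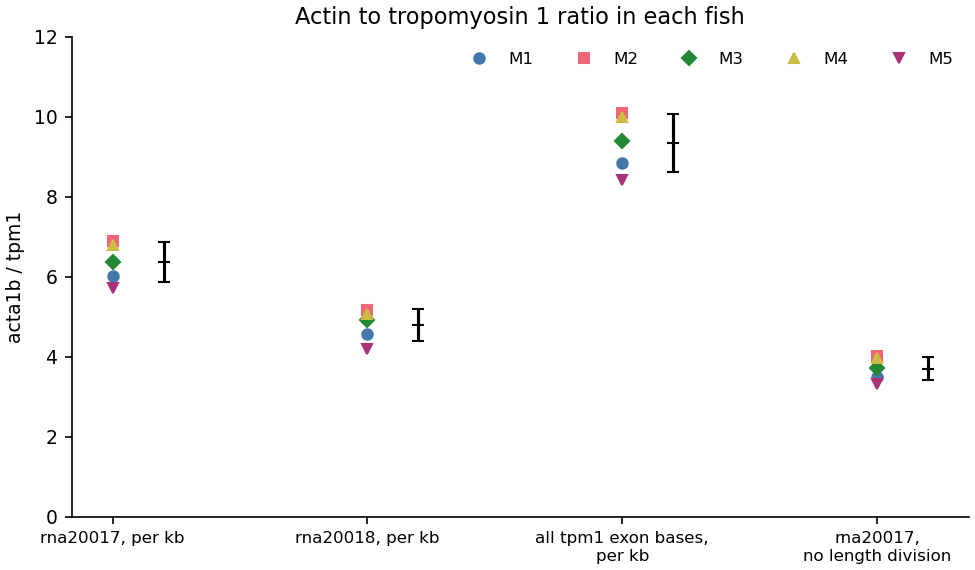
Ratio of acta1b to tpm1 in each of 5 fish under 4 ways to count tpm1, with the mean and SD beside the points. The ratio lies between 3.33 and 10.1 over these 4 definitions, and under each of them M2 is the highest fish and M5 the lowest.

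The genes whose pattern over the 5 fish came closest to the members were found by the root mean square difference of log2 values after each gene was centred on its mean, over 1451 other genes whose mean normalized count reached 1000. For acta1b the closest were lonrf2 (0.0655), coq10b (0.0777), gapdh (0.0858), cmya5 (0.0945) and nt5c3a (0.0954), against a median difference of 0.406 over all genes. gapdh, a glycolytic enzyme, had the highest level of these, with normalized counts of 265789, 275948, 224687, 249149 and 173823 (M1 to M5). It shared the low value in M5. tpm1 was the tenth closest gene to acta1b, at 0.102, and acta1b the ninth closest to tpm1. The closest to tpm1 were lrtm1 (0.0338), mtmr4 (0.0907), si:ch211-266g18.10 (0.0924), lonrf2 (0.0926) and ivns1abpa (0.0927), against a median of 0.372. All of these values share the 5 libraries and their size factors, and with 5 points such likeness is a description.

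Among the actin genes examined, acta1b took nearly all of the signal in this tissue. The other actins of the list were acta1a, the second skeletal alpha-actin gene, actc1a and actc1b, named after cardiac alpha-actin, and acta2, named after smooth muscle alpha-actin. Summed per kilobase over these 5 genes, acta1b made up 99.92, 99.74, 99.92, 99.35 and 99.77% (M1 to M5). acta1a had normalized counts of 23.0, 25.4, 11.9, 115 and 28.9 (M1 to M5), so that acta1b was at least 10873 times higher per kilobase in each fish. actc1b varied most, from 291 in M1 and 360 in M3 to 717 in M5, 2204 in M2 and 5757 in M4. acta2 stayed between 401 and 642. The cytoplasmic actin actb2, added to the list after its values were seen, had a mean of 10999 per kilobase and lay 54.8 to 71.6 times below acta1b. With actb2 included, the share of acta1b was 97.77 to 98.54%. Actin genes to which the gene table gives no such symbol were not covered. Only primary alignments were counted and actin genes are alike in sequence, so the level of a minor copy beside one this abundant is uncertain. The identity of the copies was not measured.

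Among the tropomyosin genes of the list, tpm1 held most of the signal, with more variation between fish. Its share of the summed level per kilobase of 5 tropomyosin genes was 94.70, 99.01, 99.59, 91.50 and 97.23% (M1 to M5). The next gene per kilobase was tpm4b in each fish, though in M3 it hardly exceeded LOC100708478 (154 against 146). tpm4b had normalized counts of 8206, 822, 187, 11110 and 2377 (M1 to M5), a range of 59.3 times. tpm2, which encodes the beta chain in other vertebrates, was also highest in M1 and M4, with 762 in M1 and 636 in M4 against 56.3 to 107 in the other fish. tpm4a stayed between 215 and 451. LOC100708478, which the study describes as a tropomyosin alpha-3 chain, stayed between 263 and 313, the narrowest range of the 5. The normalized count of tpm1 was 301348 in M3, where tpm4b was lowest, and 305352 in M4, where tpm4b was highest.

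**Figure D5:**
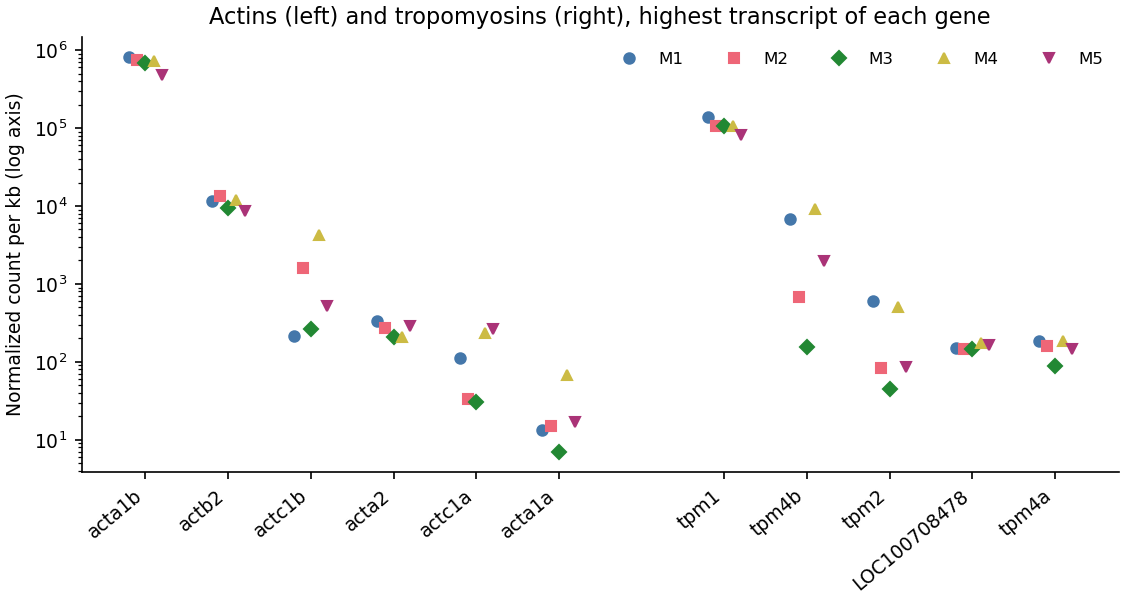
Normalized count per kilobase (log axis) of the highest transcript of each of 6 actin and 5 tropomyosin genes in each of 5 fish. acta1b and tpm1 stand above the other plotted genes of their family in each fish, and actc1b and tpm4b spread over the widest ranges, 19.8 and 59.3 times.

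Of the 35 genes of the thin filament list, 28 had at least 10 counts in every fish, beside 34.9% of all listed features. The units differ, since each gene stands for its highest transcript, while the share over all features includes every minor transcript. The contrast is therefore too large. These were 5 of 5 actins, 5 of 5 tropomyosins, 17 of 18 other thin filament and Z-disc genes, and only 1 of 7 troponins. That troponin was LOC100707421, which the study describes as a fast troponin T and whose highest transcript had a mean of 259179 ± 24903 normalized counts per kilobase (SD, n = 5). This lay above tpm1, which had 0.333 to 0.470 of it in single fish, and below acta1b, which was 1.91 to 2.95 times higher. The 6 other troponin genes on the list (tnnc1a, tnni1a, tnni1b, tnnt1, tnnt2a and tnnt2b), named after slow and cardiac forms, had at most 42.8 normalized counts in any fish. Of 4 troponin genes added after their values were seen, tnni4b.2 had normalized counts of 1729, 630, 807, 8219 and 4107 and tnnt2d had 2527, 40.4, 32.5, 255 and 167 (M1 to M5). The other two, tnni1c and tnnt2e, had at most 13.2. The fast troponin I and C genes are not on the list, because the gene table gives no symbol for them by which the list could find them.

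Among the proteins that build and hold the filament, the highest levels were those of actn3b, the fast-fibre alpha-actinin that anchors thin filaments at the Z-disc, and tmod4, which caps the pointed end. Per kilobase they had means of 34006 ± 5988 and 15202 ± 2573 (SD, n = 5). neb, the giant protein that runs along the filament, had 5165 ± 627, and cfl2, the muscle cofilin that severs actin, had 4270 ± 440. capzb, of the barbed-end cap, had 2126 ± 221 and lmod3, which promotes filament growth, had 1379 ± 471. The normalized count of lmod3, which was named after its values were seen, was 5084, 4886, 7853, 9537 and 10677 (M1 to M5). It was highest in M5, where acta1b and tpm1 were lowest. Of the other genes named here, cfl2 was also highest in M5, while actn3b, tmod4, neb and capzb were not.

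Of the 13 listed fast fibre markers, the 6 with a feature all had at least 10 counts in every fish. Their sum lay between 982391 and 1347124 per kilobase. Slow fibre markers, also 6 genes with a feature, summed to 622, 141, 51.0, 239 and 123 (M1 to M5), with tnni1b at 0 in every fish. Cardiac markers (4 genes) summed to 30.3 to 264, with myl7 and nppa at 0. Nearly all of that sum was actc1a, one of the listed actins, and only 1 of the 4 had at least 10 counts in every fish. Smooth muscle markers (4 genes) summed to 619 to 992. The slow fibre sum was highest in M1 and M4, as were tpm4b and tpm2, and the part of slow fibres in those values was not tested. The slow markers did not all go this way. Per kilobase, tnnc1a was highest in M1 and M4 (33.7 and 5.70), while tnni1a was lowest in M1 (1.18) and highest in M5 (7.17). Both lay near the floor and were a small part of the sum. The values of myoz2a and mybpc1 in single fish are not given here. The fibroblast genes (4 of 4) summed to 9076 in M1 and to 3257 to 5466 in the other fish, the red blood cell genes (2) to 48.1 to 101 and the adipocyte gene fabp4a to 1682 to 2802.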

How the data were processed

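The authors sequenced rRNA-depleted, directional paired-end libraries, trimmed the reads, aligned them with HISAT2 2.1.0 and counted fragments with featureCounts on the transcripts of O_niloticus_UMD_NMBU. The deposited values are raw counts. Primary alignments were counted, chimeric fragments were left out, and a fragment could match several transcripts. The paper also states that duplicates were ignored, but describes no step that marked them. What this did to the counts of abundant transcripts was not tested. The strand setting of the counting is not given in the sources used here. The deposited transcript length (another column) is the sum of exon bases. No column of sample values was left unused (0).

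Size factors were computed with DESeq2 1.42.0 in R 4.3.3 (TMM factors with edgeR 4.0.16), and the rest in Python 3.11.15 (pandas 2.3.3, numpy 2.4.6, scipy 1.17.1, figures with matplotlib 3.10.9). Total counts per library lay between 26750559 and 90337019, with a median of 36731226. Symbols came from the RefSeq gene table of the same assembly: 44096 features on linkage groups matched 1 gene exactly and 28994 lay inside 1 gene. Genes were represented by their highest transcript. Transcripts were compared within fish by the exact two-sided sign-flip test. It was run on log2 ratios for the 55 pairs and for acta1b over tpm1. For the exon contrasts it was run on differences of normalized counts. Spread was the SD of log2(normalized count + 1). A fish was called far from the rest where its Dixon ratio was above 0.71.

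The genes named are the members, the actins, tropomyosins and troponins of a thin filament list, its other genes with the highest level, and the 5 genes closest in pattern to acta1b and to tpm1. lmod3 and genes given for a single far value were named after their values were seen, as were the list genes actb2, tnnt2d, tnnt2e, tnni1c and tnni4b.2. The gene table has no descriptions, so only 2 genes entered the list through the study's own tables. The members and lists were chosen with earlier results of these data known. Alternatives were other library scalings, a minimum of 10 counts, other length divisions, pseudocounts of 1 and 0.1, and leaving out each fish.

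Tested on simulated data, the largest error of a size factor over 32477 features, of which 200 were changed, was 0.286%. Each library is a separate fish, but all are full siblings, so the sign-flip p-values apply to this family only. They reflect that all fish tested agreed in direction, and do not measure the spread between fish. No nucleotide or protein sequences were used here.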

Additional observations from a re-analysis of the deposited data

Results flagged for a closer look

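For 61 sets of values over the 5 fish, the gap of the outermost fish was compared with the whole range by Dixon's ratio. The sets were the members, the ratios, the exon differences and the thin filament genes with at least 10 counts in every fish. Of these, 6 had a fish far from the others, and chance gives about 3.05. Among the members' own counts and the actin to tropomyosin ratios there was none.

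In the second exon pair of tpm1, M2 stood apart. The transcript rna20019 exceeded rna20014 by 0.142% of its count in M2 and by 0.0420% in the next fish, M1. The transcript rna20022 exceeded rna20021 by 0.179% in M2 and by 0.0610% in M1. Both pairs end at the far 3′ end and share fragments, so they are not independent. Their differences include fragments that touch an exon of the pair and the near 3′ end, so they do not show a trait of far-end transcripts. For rna20020 and rna20018, which exchange the same exons but end at the near 3′ end, the share in M2 was 0.0115%, within the range of 0.00724 to 0.0153% of the fish.

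The skeletal alpha-actin acta1a had 115 normalized counts in M4 and 28.9 in the next fish, M5. lmod2b, a leiomodin, had 4820 in M4 and 1503 in M1. tnnt2d, a troponin T gene added after its values were seen, had 2527 in M1 and 255 in M4. cap2, a cyclase-associated protein that binds actin, was low in M2, at 2335 against 3295 in M3.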

How the results depend on the processing

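No paired analysis was possible because no groups are compared here. The sign-flip tests already set transcripts of the same fish against each other. Of 60 values under an alternative, 59 kept their direction and their side of the threshold, or moved by less than the spread between fish or by less than 1.5 times, and 1 moved. The tests with 5 fish cannot go below 0.0625, nor those with 4 fish below 0.125, so their unchanged side of the threshold says nothing. With each fish left out in turn, the mean normalized count of acta1b ranged from 1081218 to 1227659 and that of rna20017 from 285926 to 324974. The log2 ratio of acta1b to rna20017 per kilobase ranged from 2.64 to 2.70, and that of rna20017 to rna20021 by count from 0.90 to 0.93. Per kilobase, the latter fell from 0.91 to 0.14. Without division by length the log2 ratio of acta1b to rna20017 was 1.89. Both are among the 59, since for ratios a kept direction and side of the threshold were enough, so that number does not show that their size held. The spread of acta1b between fish was 0.308, and it ranged from 0.118 without M5 to 0.356 without M3. That of rna20017 was 0.261 and ranged from 0.182 to 0.301. Scaling by the library total alone gave 0.250 for acta1b and 0.194 for rna20017. The number of tpm1 transcripts among the 30 highest features was 6, 5 per kilobase, and 6 to 8 with a fish left out. Summing the listed actins and tropomyosins was chosen after seeing the data.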
